A study of Homo sapiens with 15 samples.

Results

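Genes that take up, bind, reduce and oxidise vitamin A, with the receptor RARB, were followed across 5 human lines derived from the retinal pigment epithelium. The set holds 9 named genes, ALDH1A1, ALDH1A3, RLBP1, RDH10, RDH11, DHRS3, CRABP2, STRA6 and RARB, out of 15510 gene rows in the count table. They were picked by name for their role, with earlier results of these data known, and all 9 were found and passed the filter on low counts. ALDH1A1 was nearly silent in T53D4 and ARPE19. It was higher in all 3 lines with a RAS, MEK or AKT construct, called the oncogene lines here. RARB was lowest in RasV12, CRABP2 was higher in AKTmyr, and STRA6 was higher in RasV12. RDH10 and RARB were lower in every oncogene line than in ARPE19 (RDH10 in AKTmyr only just). Both MekDD calls were lost without some single libraries. T53D4 also lay below ARPE19 for RDH10 and RARB, by log2 -1.09 and -0.51, without passing. Against T53D4, neither gene passed in MekDD or AKTmyr, with or without the replicate number as a block. RLBP1 passed the test in no comparison under any setting tried, and ALDH1A3 and DHRS3 passed only under some of the alternative settings.

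The groups are RasV12, MekDD, AKTmyr, T53D4 and ARPE19, with 3 poly(A) RNA libraries each. ARPE19 is a widely used human cell line from that epithelium, labelled as untransfected and not transformed. T53D4, also labelled not transformed, is ARPE19 with plasmids for hTERT plus p53DD, a dominant negative p53 fragment, and for cyclin D1 plus CDK4R24C, a CDK4 mutant. On top of both plasmids, RasV12 carries H-RasV12 (labelled transformed), MekDD carries MEK-DD, an active MEK (weakly transformed), and AKTmyr carries myr-HA-Akt, a membrane-bound AKT (transformed). All lines were grown attached in medium with fetal bovine serum. There is 1 line per construct, and each replicate came from its own thawed vial, so the p-values cover the spread between vials of a line and not between independently made lines. Each adjusted p is edgeR's, from its quasi-likelihood test, corrected by Benjamini-Hochberg over all genes tested, and a gene passed under 0.05. Reads on genes ranged from 20.63 to 46.55 M per library, with replicate 3 the shallowest in every line.

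The construct rows matched the oncogene labels. The H-RAS construct had 310 ± 30.4 CPM (counts per M reads on genes, mean ± SD, n = 3) in RasV12 and 20.8 ± 3.69 CPM in T53D4, the MEK construct had 753 ± 229 CPM in MekDD and at most 0.0673 CPM as the mean of any other line, and the AKT construct had 839 ± 334 CPM in AKTmyr and 117 ± 16.0 CPM in T53D4. The constructs for cyclin D1 and CDK4 stood about alike in T53D4 and ARPE19, at 146 ± 32.1 and 92.2 ± 11.8 CPM in T53D4 and 193 ± 41.6 and 70.7 ± 12.0 CPM in ARPE19. RasV12, MekDD and AKTmyr, labelled as carrying them, had 2349 ± 121, 269 ± 57.6 and 858 ± 132 CPM for cyclin D1 and 2380 ± 23.3, 142 ± 13.7 and 1005 ± 90.1 CPM for CDK4. The constructs of the other plasmid did separate these lines from ARPE19, with TERT at 454 ± 58.2 CPM in MekDD, 879 ± 147 in T53D4 and 0.176 ± 0.0538 in ARPE19, and p53DD at 32.3 ± 8.36 CPM in MekDD, 70.7 ± 20.1 in T53D4 and 0.00976 ± 0.0169 in ARPE19. For the cyclin D1 and CDK4 plasmid alone, "T53D4" and "MekDD" stand for the libraries so labelled, and results against ARPE19 are given beside those against T53D4. RasV12 and AKTmyr differ from T53D4, MekDD and ARPE19 in cyclin D1 and CDK4 construct reads as well as in the oncogene. The part of each in the results below was not tested.

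Vitamin A circulates as retinol bound to a carrier protein and enters cells partly through the STRA6 receptor. Inside the cell retinol is oxidised reversibly to retinal and then irreversibly to retinoic acid, which binds the nuclear receptors RARA, RARB and RARG in pairs with RXR partners and switches on genes that include RARB itself and the CYP26 enzymes that destroy retinoic acid. The retinal pigment epithelium is known for a second use of these molecules, the visual cycle, in which RPE65, LRAT and the carrier RLBP1 regenerate the chromophore of photoreceptors.

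That cycle's defining enzyme was at or near 0 in these cells. RPE65, the isomerase, had 1 read over the 3 libraries of RasV12, 4 in MekDD, 12 in AKTmyr, 0 in T53D4 and 0 in ARPE19. A count of 0 allows up to 3 reads per library, which is 0.0651 to 0.143 CPM across the T53D4 libraries and 0.0768 to 0.125 CPM across those of ARPE19, and this floor covers counting error only. RGR, the retinal G protein-coupled receptor, had 12 reads in AKTmyr and 0 in each other line. Of 21 pigment epithelium genes listed, 19 were in the table, and their summed level was 973 to 1140 CPM in RasV12, 1281 to 1564 in MekDD, 1488 to 2172 in AKTmyr, 1723 to 2125 in T53D4 and 2631 to 2702 in ARPE19, most of it from the keratin genes KRT8 and KRT18. OTX2, an eye transcription factor, was at 69.3 ± 3.14 CPM in RasV12, 73.7 ± 13.5 in MekDD, 94.1 ± 13.5 in AKTmyr, 64.4 ± 18.1 in T53D4 and 64.9 ± 5.27 in ARPE19 (SD, n = 3).

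The promoter windows of RARB and ALDH1A1 are shown because these are the receptor that retinoic acid itself switches on and the gene of the 9 with the highest ratio between its highest and lowest line means. Both are the 250 bases before a RefSeq transcript start on GRCh38.p14, written 5′ to 3′ on the gene's strand. In the RARB window (chr3:25428013-25428262, plus strand) the capitals mark a retinoic acid response element of the DR5 type, bases -52 to -37 from the start. In the ALDH1A1 window (chr9:72953054-72953303, minus strand) they mark a CCAAT box, bases -74 to -70.
RARB: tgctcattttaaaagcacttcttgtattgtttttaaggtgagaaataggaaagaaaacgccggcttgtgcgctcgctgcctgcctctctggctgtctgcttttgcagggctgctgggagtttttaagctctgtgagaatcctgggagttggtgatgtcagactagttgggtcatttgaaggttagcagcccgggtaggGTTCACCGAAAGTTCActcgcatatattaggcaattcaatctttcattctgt
ALDH1A1: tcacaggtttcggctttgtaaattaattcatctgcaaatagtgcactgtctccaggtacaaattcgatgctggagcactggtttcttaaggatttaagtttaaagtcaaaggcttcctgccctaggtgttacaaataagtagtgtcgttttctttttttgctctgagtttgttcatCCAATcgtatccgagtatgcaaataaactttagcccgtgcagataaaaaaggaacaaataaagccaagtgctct
The DR5 search took a pair of short repeats, each GGTCA or GTTCA, with NNNNNN between them, on both strands. Among 17 windows of 8 of the 9 genes, RARB held the 1 match, and 52 of 35116 windows of all genes had one (0.148%). Its letters, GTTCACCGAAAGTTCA, are those of the element known from textbooks in the second RARB promoter. CCAAT, searched on both strands, was found in windows of ALDH1A1, ALDH1A3, RDH11 and STRA6 and in 32.0% of all windows. A TGANTCA match, the letters of an AP-1 site, stood in a DHRS3 window (6.57% of all windows). A match describes letters and does not show that a protein binds there, and the libraries do not say which transcript start was used.

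**Figure D1:**
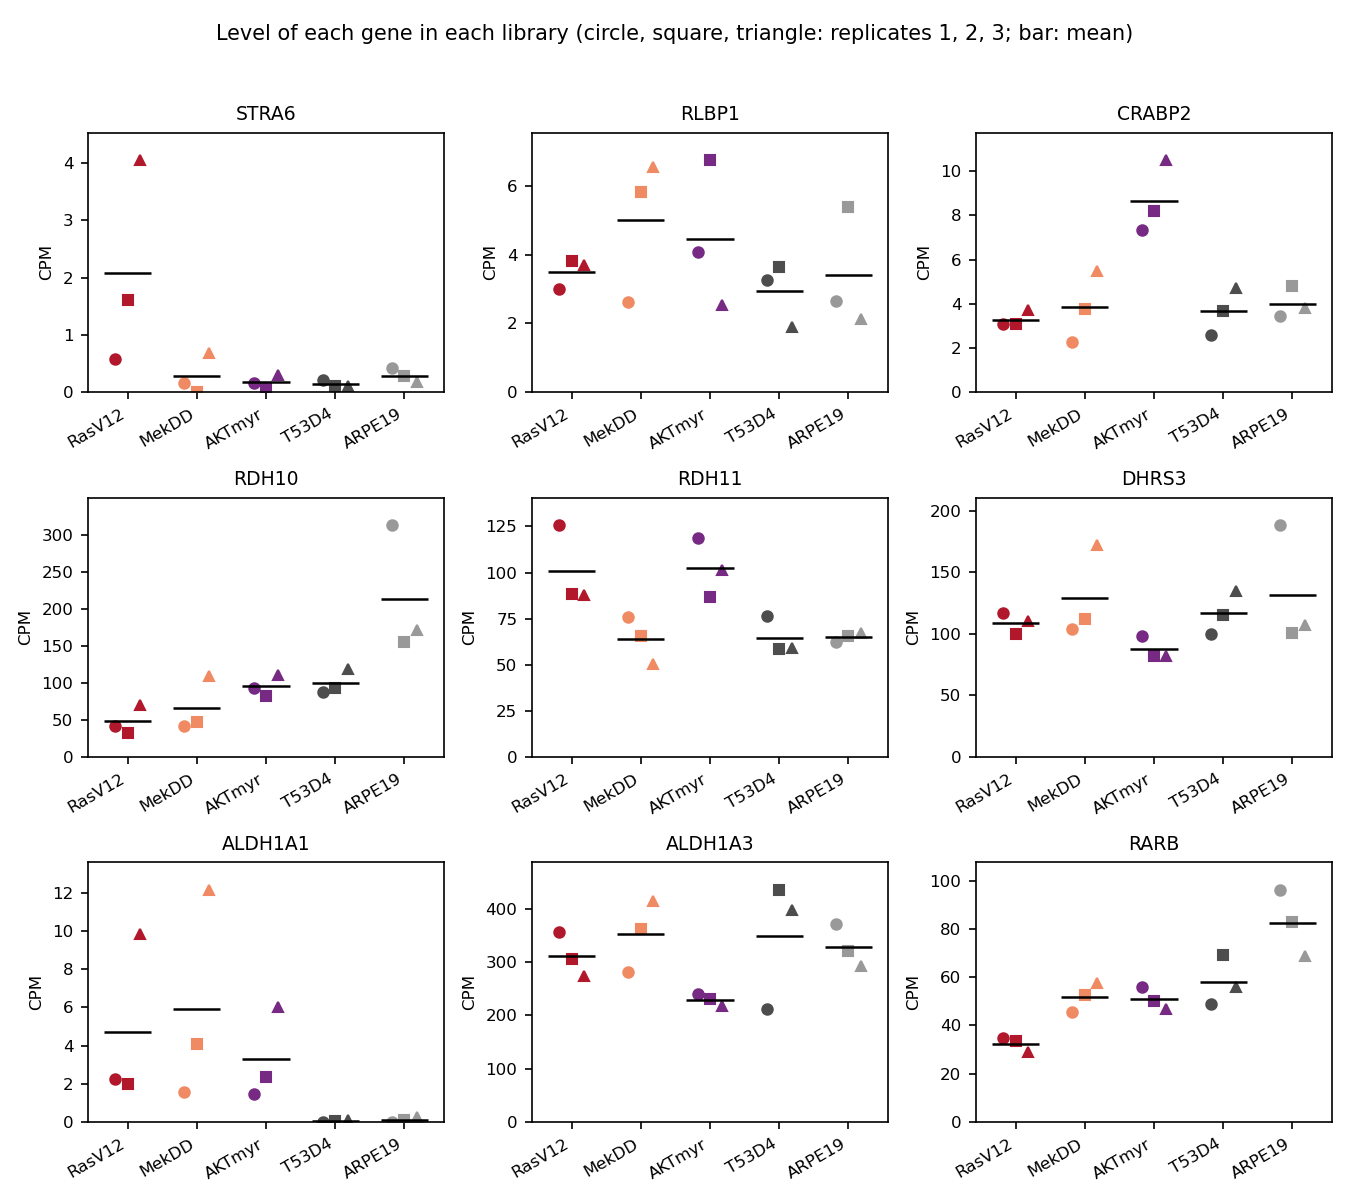
Level of each of the 9 genes in every library, as CPM on a linear axis from 0, with lines from left to right RasV12, MekDD, AKTmyr, T53D4 and ARPE19. Symbols are replicates 1, 2 and 3 and the bar is the line mean. ALDH1A1 lies above 1 CPM in all 9 oncogene libraries and below 0.3 CPM in the other 6, and RARB is lowest in the 3 RasV12 libraries.

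ALDH1A1 and ALDH1A3 oxidise retinal to retinoic acid, the committed step. ALDH1A1 (ENSG00000165092, hg38 chr9:72900671-73080442, minus strand) had 2.23, 2.01 and 9.81 CPM in RasV12 replicates 1, 2 and 3, 1.56, 4.09 and 12.1 CPM in MekDD, and 1.46, 2.33 and 6.04 CPM in AKTmyr. T53D4 had 0, 0.0651 and 0.0952 CPM, from 5 reads in all, and ARPE19 had 0, 0.0768 and 0.250 CPM, from 9 reads in all. No oncogene library overlapped the other 6, and replicate 3 was the highest in all 5 lines. Against T53D4 the log2 fold change was 6.38 (SE 1.23) in RasV12, 6.72 (SE 1.22) in MekDD and 5.86 (SE 1.23) in AKTmyr, with edgeR adjusted p = 0.00176, 0.0047 and 0.00552. Against ARPE19 it was 5.54, 5.88 and 5.02, with edgeR adjusted p = 0.00222, 0.005 and 0.00842. The sizes rest on 5 reads in T53D4 and 9 in ARPE19. These 6 calls held with any 1 library left out. Without the replicate 2 libraries of all 5 lines the fold changes were log2 5.03 to 7.25 and edgeR's adjusted p was 0.0645 to 0.226. The oncogene lines did not separate from each other. The log2 difference was -0.35 (approximate 95% interval -1.893 to 1.202) for RasV12 minus MekDD. It was 0.52 (-1.05 to 2.08) for RasV12 minus AKTmyr and 0.86 (-0.70 to 2.42) for MekDD minus AKTmyr. In bulk RNA, a few cells with much ALDH1A1 and many cells with little cannot be told apart.

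ALDH1A3 (ENSG00000184254, chr15:100877714-100916626, plus strand) was the abundant enzyme. Per exon length it stood at 58.5 RPKM in RasV12, 66.0 in MekDD, 42.9 in AKTmyr, 65.2 in T53D4 and 61.6 in ARPE19, where ALDH1A1 stood at 1.65, 2.09, 1.15, 0.0188 and 0.0383 RPKM. ALDH1A1 made up 1.03% to 6.32% of their summed RPKM in the 9 oncogene libraries and 0% to 0.160% in the T53D4 and ARPE19 libraries. ALDH1A2, the remaining enzyme of this class, had at most 25 reads over the libraries of a line. ALDH1A3 itself was at 273 to 357 CPM in RasV12, 281 to 415 in MekDD, 217 to 239 in AKTmyr, 212 to 434 in T53D4 and 293 to 372 in ARPE19. Every MekDD library lay above those of AKTmyr, with a log2 difference of 0.62 for MekDD over AKTmyr (SE 0.22, edgeR adjusted p = 0.0557, 0.0467 with the replicate number as a block, 0.042 with these lines alone, 0.0413 without MekDD replicate 1 and, by DESeq2, 0.0386). In T53D4, replicate 1 (212 CPM) was well under replicates 2 and 3 (434 and 397 CPM), and without it AKTmyr was lower than T53D4 by log2 -0.86 (edgeR adjusted p = 0.00721, and 0.0727 with it).

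RDH10, RDH11 and DHRS3 move retinol to retinal and back. RDH10, the main enzyme that oxidises retinol in embryos of the mouse, lies at chr8:73294602-73325281 (ENSG00000121039, plus strand). It had 41.6, 32.7 and 69.7 CPM in RasV12, 41.1, 47.3 and 109 in MekDD, 92.8, 82.3 and 110 in AKTmyr, 88.0, 93.4 and 119 in T53D4 and 312, 155 and 171 in ARPE19. Every ARPE19 library was above every library of the other 4 lines, and ARPE19 replicate 1 stood well above its partners. Against ARPE19 RDH10 fell by 2.15 on the log2 scale in RasV12 (SE 0.39), by 1.69 in MekDD (SE 0.38) and by 1.16 in AKTmyr (SE 0.37), with edgeR adjusted p = 0.000953, 0.0123 and 0.0472. The RasV12 call held with any 1 library left out. The MekDD call was lost without MekDD replicate 1 (edgeR adjusted p = 0.0565), MekDD replicate 2 (0.0665) or ARPE19 replicate 1 (0.0589), and with these lines fitted alone (0.0507). The AKTmyr call was lost without any 1 of its 6 libraries (edgeR adjusted p = 0.0529 to 0.178, the highest without ARPE19 replicate 1, where it fell by 0.78 on the log2 scale), with RLE factors (0.0507) and with no filter on low counts (0.0515). T53D4 and ARPE19 differed by -1.09 on the log2 scale (SE 0.37, edgeR adjusted p = 0.329), which did not pass.

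Against T53D4, RDH10 did not pass in the fit without a block in RasV12 (log2 -1.06, SE 0.37, edgeR adjusted p = 0.0533), although the RasV12 and T53D4 libraries did not overlap. With the replicate block, fitted over all 15 libraries, it did (log2 -1.12, edgeR adjusted p = 0.0122), as with DESeq2 (adjusted p = 0.0228). Among calls of the 9 genes, the block changed only this one and ALDH1A3 in MekDD over AKTmyr. Same-numbered libraries of RasV12 and T53D4 deviated together, which did not hold for every pair of lines. RDH10 in RasV12 also passed against T53D4 without RasV12 replicate 3 (log2 -1.43, edgeR adjusted p = 0.0239). Against T53D4, MekDD (log2 -0.61) and AKTmyr (log2 -0.07) did not pass (edgeR adjusted p = 0.46 and 0.911). RDH10 was lower in RasV12 than in AKTmyr as well (log2 -0.99, SE 0.37, edgeR adjusted p = 0.0483), a call lost without RasV12 replicate 1 or 2 or any AKTmyr replicate (edgeR adjusted p = 0.0627 to 0.169). The span of RDH10 overlaps RPL7 on the other strand, with 0 shared exon bases.

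RDH11, a retinol dehydrogenase that mainly reduces retinal, was higher in RasV12 and AKTmyr. These lines also had the most cyclin D1 and CDK4 construct reads, and the part of that difference was not tested. RDH11 (ENSG00000072042, chr14:67676800-67695793, minus strand) had 126, 88.4 and 87.9 CPM in RasV12, 75.7, 65.7 and 50.6 in MekDD, 118, 86.8 and 102 in AKTmyr, 76.5, 58.3 and 58.9 in T53D4 and 62.1, 65.6 and 67.1 in ARPE19. All RasV12 and AKTmyr libraries exceeded all 9 others, and replicate 1 was the highest in 4 lines. Against T53D4 the log2 fold change was 0.64 (SE 0.18) in RasV12 and 0.66 (SE 0.18) in AKTmyr, with edgeR adjusted p = 0.0192 and 0.0207. Against ARPE19 it was 0.63 and 0.66, with edgeR adjusted p = 0.017 and 0.0241. MekDD lay below both, with RasV12 over MekDD at log2 0.65 and MekDD over AKTmyr at -0.68 (edgeR adjusted p = 0.0252 and 0.0149). None of these 6 calls held with every single library left out. Against T53D4, the RasV12 call was lost without RasV12 replicate 1 (edgeR adjusted p = 0.0955), T53D4 replicate 2 (0.0766) or T53D4 replicate 3 (0.0697), and the AKTmyr call without AKTmyr replicate 1 (0.0774), T53D4 replicate 2 (0.0758) or T53D4 replicate 3 (0.0762). Against ARPE19, the RasV12 call was lost without RasV12 replicate 1 (edgeR adjusted p = 0.0895) or ARPE19 replicate 1 (0.0581), and the AKTmyr call without AKTmyr replicate 1 (0.0895) or ARPE19 replicate 1, 2 or 3 (0.0694, 0.072 and 0.0526). RasV12 over MekDD was lost without RasV12 replicate 1 (edgeR adjusted p = 0.111), MekDD replicate 2 (0.059) or MekDD replicate 3 (0.114) and with these lines alone (0.0588), and MekDD under AKTmyr without MekDD replicate 3 (0.0618) or AKTmyr replicate 1 (0.0572). An overlapping gene on the same strand, AL049779.1, shares 6.29% of the RDH11 exon bases, so reads there are uncertain.

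DHRS3, a reductase that returns retinal to retinol (ENSG00000162496, chr1:12567910-12618210, minus strand), stood at 99.9 to 117 CPM in RasV12, 104 to 172 in MekDD, 81.9 to 98.2 in AKTmyr, 100 to 135 in T53D4 and 101 to 188 in ARPE19. AKTmyr was the lowest line and its libraries overlapped none of the others, but no comparison passed, except MekDD over AKTmyr without replicate 1 of every line (log2 0.79, edgeR adjusted p = 0.0207). ARPE19 replicate 1, at 188 CPM, stood apart from its partners at 101 and 107 CPM, as it did for RDH10. Per exon length DHRS3 was above RDH10 and RDH11 in all lines except ARPE19, at 31.0 RPKM in RasV12 against 9.01 for RDH10 and 18.3 for RDH11. In ARPE19 DHRS3 stood at 37.5 RPKM, RDH10 at 39.9 and RDH11 at 11.8.

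STRA6, the cell surface receptor for the retinol carrier, was a low gene that rose in RasV12. STRA6 (ENSG00000137868, chr15:74179466-74212267, minus strand) had 16, 68 and 90 reads in RasV12, or 0.584, 1.61 and 4.05 CPM. It had 5, 0 and 16 reads in MekDD, 6, 3 and 7 in AKTmyr, 6, 5 and 2 in T53D4 and 14, 11 and 4 in ARPE19. RasV12 replicate 1 lay below MekDD replicate 3 (0.676 CPM) and above every AKTmyr, T53D4 and ARPE19 library. RasV12 exceeded T53D4 by log2 3.88 (SE 0.97), AKTmyr by 3.65 (SE 0.94), ARPE19 by 2.80 (SE 0.87) and MekDD by 3.03 (SE 0.90), with edgeR adjusted p = 0.00946, 0.00716, 0.026 and 0.036. The calls against T53D4 and AKTmyr held with any 1 library left out. Without replicate 2 of every line both were lost (edgeR adjusted p = 0.0843 and 0.0695). The call against T53D4 was also lost without replicate 3 of every line (0.0596). The call against ARPE19 was lost without RasV12 replicate 3 (log2 1.92, edgeR adjusted p = 0.125) or ARPE19 replicate 1, 2 or 3 (0.0528, 0.0819 and 0.0714). The call against MekDD was lost without RasV12 replicate 2 (0.0656) or 3 (log2 2.14, 0.155), MekDD replicate 1 (0.116) or 2 (0.0905), and with these lines alone (0.0943). CCDC33 on the other strand shares 6.77% of the STRA6 exon bases, and strand use in counting is not given in the sources used here.

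CRABP2 carries retinoic acid from the cytosol to its nuclear receptors. CRABP2 (ENSG00000143320, chr1:156699606-156705816, minus strand) had 3.07, 3.07 and 3.69 CPM in RasV12, 2.27, 3.76 and 5.49 in MekDD, 7.32, 8.19 and 10.5 in AKTmyr, 2.57, 3.69 and 4.71 in T53D4 and 3.43, 4.79 and 3.79 in ARPE19. Every AKTmyr library was above all 12 others. AKTmyr exceeded T53D4 by log2 1.25 (SE 0.30) and ARPE19 by 1.11 (SE 0.29), with edgeR adjusted p = 0.0105 and 0.0194. CRABP2 was lower in RasV12 than in AKTmyr by log2 -1.40 and in MekDD by -1.18 (edgeR adjusted p = 0.00217 and 0.0105). The call against ARPE19 was lost without AKTmyr replicate 3 (edgeR adjusted p = 0.0625), ARPE19 replicate 1 (0.0659) or ARPE19 replicate 3 (0.0592), and the other 3 held with any 1 library left out. Without replicate 2 of every line all were lost, with edgeR adjusted p from 0.0756 (RasV12 against AKTmyr) to 0.192 (AKTmyr against ARPE19).

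RLBP1, the visual cycle carrier of retinal (ENSG00000140522, chr15:89209869-89221614, minus strand), was low in every line, with means of 3.50 CPM in RasV12, 5.005 in MekDD, 4.46 in AKTmyr, 2.93 in T53D4 and 3.40 in ARPE19. Single libraries lay between 1.904 and 6.76 CPM, and those of AKTmyr alone between 2.54 and 6.76, wider than any difference between line means. The approximate 95% interval for RasV12 minus T53D4 was -0.61 to 1.09 on the log2 scale, which is about the precision these libraries allow.

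RARB is both a receptor for retinoic acid and a gene that retinoic acid induces through the element shown in capitals above. RARB (ENSG00000077092, chr3:25174332-25597932, plus strand) had 34.8, 33.5 and 29.1 CPM in RasV12, 45.5, 52.6 and 57.4 in MekDD, 55.8, 50.0 and 47.0 in AKTmyr, 48.9, 69.0 and 55.9 in T53D4 and 96.0, 82.95 and 68.6 in ARPE19. The 3 RasV12 libraries were below all 12 others. ARPE19 was the highest line, with replicate 3 (68.6 CPM) just under T53D4 replicate 2 (69.0 CPM), and MekDD, AKTmyr and T53D4 overlapped. RARB fell in RasV12 by log2 -0.84 against T53D4 (SE 0.15), -0.67 against MekDD (SE 0.15), -0.65 against AKTmyr (SE 0.15) and -1.35 against ARPE19 (SE 0.16), with edgeR adjusted p = 0.00137, 0.00903, 0.00448 and 3.35e-05. It was also lower than in ARPE19 in MekDD (log2 -0.67) and AKTmyr (-0.70), with edgeR adjusted p = 0.0137 and 0.00769. T53D4 lay below ARPE19 by log2 -0.51 (SE 0.15, edgeR adjusted p = 0.246), which did not pass. Against T53D4, MekDD (log2 -0.16) and AKTmyr (log2 -0.19) did not pass either (edgeR adjusted p = 0.687 and 0.416). The MekDD call against ARPE19 was lost without MekDD replicate 1 (edgeR adjusted p = 0.0659), MekDD replicate 2 (0.052) or ARPE19 replicate 1 (0.065), and the other 5 held with any 1 library left out. Without replicate 2 of every line, only RasV12 against ARPE19 passed (edgeR adjusted p = 0.0112). The other RARB calls then lay between 0.0663 (RasV12 against AKTmyr) and 0.252 (MekDD against ARPE19). RasV12 against MekDD was also lost without replicate 3 of every line (log2 -0.51, edgeR adjusted p = 0.147). MekDD against ARPE19 was also lost without replicate 1 of every line (edgeR adjusted p = 0.104). TOP2B on the other strand shares 0.757% of the RARB exon bases.

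**Figure D2:**
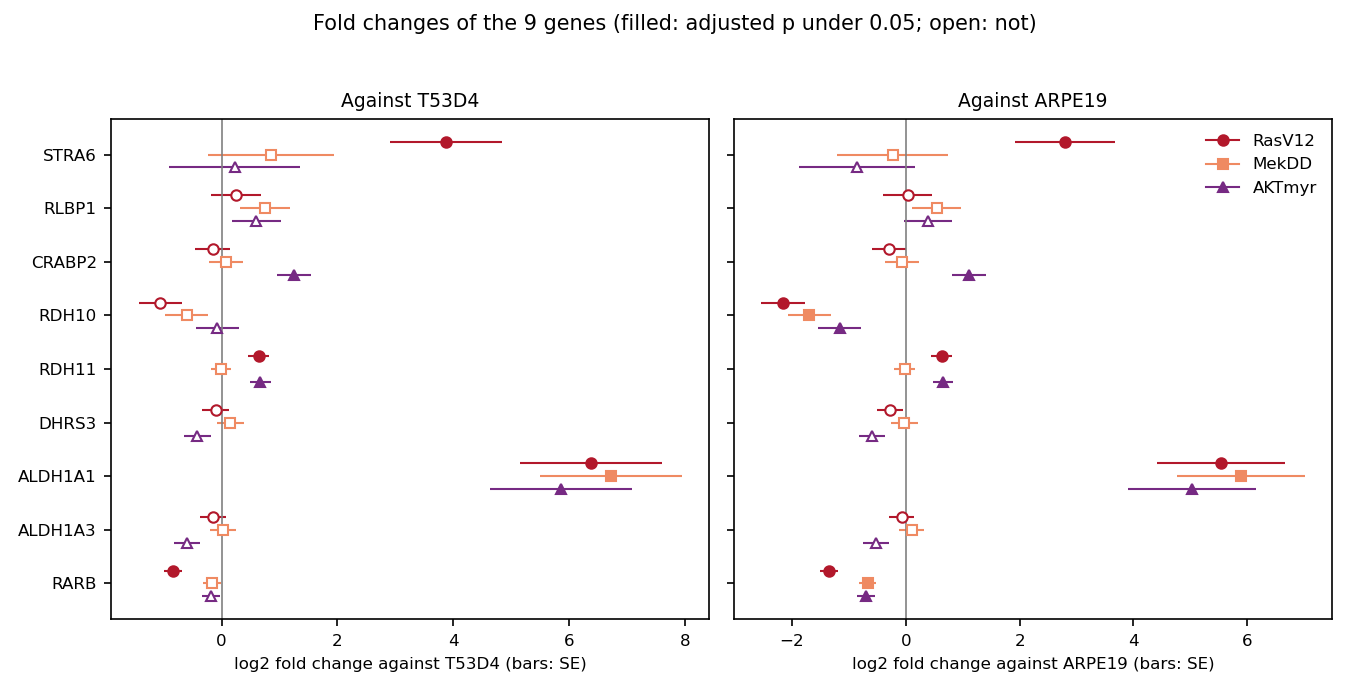
Log2 fold change of the 9 genes in RasV12, MekDD and AKTmyr against T53D4 (left) and against ARPE19 (right), with SE bars; filled symbols have edgeR adjusted p under 0.05. ALDH1A1 stands at log2 5.02 to 6.72 in all 3 lines on both sides, while RDH10 is filled only against ARPE19.

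Counted by comparison, the number of the 9 genes that passed was read against the share of all 13599 genes tested. In RasV12 against T53D4, 3 were higher and 1 lower, where 24.4% of all genes passed, 10.8% higher and 13.6% lower. In MekDD against T53D4, 1 was higher and 0 lower, where 5.1% passed, 2.27% higher and 2.83% lower. In AKTmyr against T53D4, 3 were higher and 0 lower, where 20.1% passed, 9.91% higher and 10.2% lower. Against ARPE19, RasV12 had 3 higher and 2 lower (30.7% of all genes, 14.4% higher and 16.2% lower), MekDD 1 higher and 2 lower (10.9%, 4.61% higher and 6.27% lower) and AKTmyr 3 higher and 2 lower (16.8%, 7.98% higher and 8.86% lower). The counts against ARPE19 dropped to 3 for RasV12 and 2 for AKTmyr without ARPE19 replicate 1, to 2 for AKTmyr without ARPE19 replicate 3, to 3 for AKTmyr without AKTmyr replicate 1, AKTmyr replicate 3 or ARPE19 replicate 2, and to 1 for MekDD without MekDD replicate 1, MekDD replicate 2 or ARPE19 replicate 1. Between oncogene lines, RasV12 against MekDD had 2 higher and 1 lower (15.5%, 7.17% higher and 8.33% lower), and 1 in all without MekDD replicate 2. RasV12 against AKTmyr had 1 higher and 3 lower (40.4%, 19.6% higher and 20.7% lower). MekDD against AKTmyr had 0 higher and 2 lower (26.2%, 12.7% higher and 13.5% lower), and 1 without AKTmyr replicate 1. In T53D4 against ARPE19 edgeR called 0 of 9, where 0.154% of all genes passed (0.0368% higher and 0.118% lower), with 2 at an unadjusted p under 0.05 and 0 by DESeq2 or with the block. With the replicate block, RasV12 against T53D4 had 3 higher and 2 lower (35.8% of all genes passed). MekDD against AKTmyr had 1 higher and 2 lower (40.3%). The block left the counts of the 9 unchanged in the other comparisons. Against T53D4 the share of all genes was then 11.7% in MekDD and 34.8% in AKTmyr. Against ARPE19 it was 43.5% in RasV12, 22.5% in MekDD, 29.6% in AKTmyr and 1.71% in T53D4. For RasV12 it was 26.4% against MekDD and 52.7% against AKTmyr. With so few genes, these shares are counts and show nothing particular to the set. The comparisons against T53D4 share its 3 libraries, as do those against ARPE19.

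Retinoid receptors other than RARB were steadier, apart from RARG. Per exon length RARB led in ARPE19, at 22.3 RPKM, and RXRB, a partner of all 3 RARs, led in RasV12, at 13.5 RPKM where RARB was at 8.78. RARG stood at 46.6 ± 5.46 CPM in RasV12, 22.9 ± 7.55 in MekDD, 30.1 ± 1.78 in AKTmyr, 24.0 ± 3.07 in T53D4 and 22.8 ± 2.93 in ARPE19 (SD, n = 3). It rose in RasV12 by log2 0.96 against T53D4 (SE 0.21), where RARB fell, and by 1.03 against ARPE19 (SE 0.21), with edgeR adjusted p = 0.00394 and 0.00213. RARG exceeded RARB per exon length only in RasV12, at 9.08 RPKM, and this order was not tested. RARA was at 28.8 to 36.7 CPM and RXRB at 53.05 to 58.5 CPM as line means. Of 12 receptor and cofactor genes tested, RasV12 had 1 higher and 1 lower than T53D4, edgeR called 0 in MekDD (0 at an unadjusted p under 0.05 and 0 by DESeq2), and AKTmyr had 2 lower, NRIP1 (log2 -0.68) and RXRA (-0.36), both calls lost in some fits with 1 library left out (highest edgeR adjusted p = 0.0778 without a library for NRIP1 and 0.196 for RXRA). With the replicate block AKTmyr had 2 higher and 3 lower. Over all genes, 24.4%, 5.1% and 20.1% passed against T53D4 in RasV12, MekDD and AKTmyr, and 35.8%, 11.7% and 34.8% with the block.

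**Figure D3:**
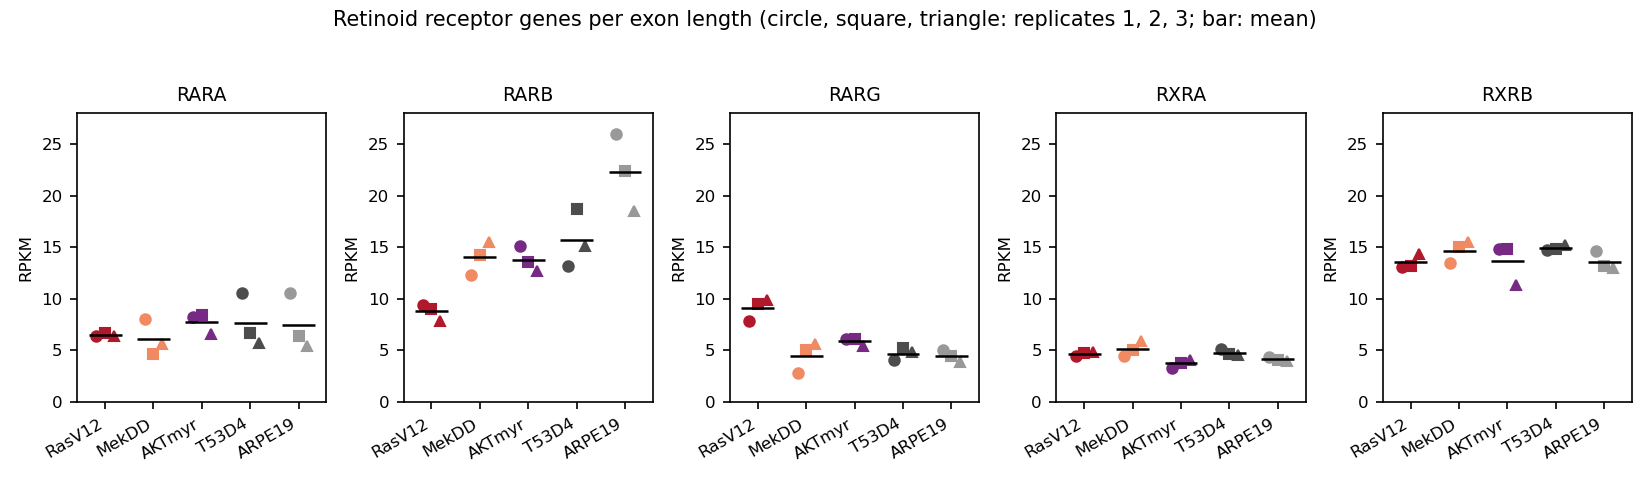
Levels of 5 retinoid receptor genes in every library, as RPKM on 1 common linear axis, with lines from left to right RasV12, MekDD, AKTmyr, T53D4 and ARPE19 and bars at the line means. RARB is lowest and RARG highest in RasV12, while the line means of RXRB lie between 13.5 and 14.9 RPKM.

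Other genes of retinol handling were listed by role. Of 32 such genes, 24 were in the table and 18 were tested, the 5 above among them. RasV12 had 3 higher and 1 lower than T53D4 (5 and 2 with the replicate block), edgeR called 0 in MekDD (4 at an unadjusted p under 0.05, 2 higher with the block and 2 by DESeq2), and AKTmyr had 4 higher and 3 lower, beside 24.4%, 5.1% and 20.1% of all genes (35.8%, 11.7% and 34.8% with the block). The median log2 fold change was 0.25, 0.13 and 0.19, beside 0.01, 0.00 and -0.01 over all genes tested. AKR1C3, an aldo-keto reductase that can reduce retinal, was at 21.9 ± 7.48 CPM in AKTmyr, against 4.22 ± 1.32 CPM in T53D4 and 8.21 ± 0.658 CPM in ARPE19 (log2 2.38 and 1.41, edgeR adjusted p = 0.000224 and 0.00471). AKR1B10, a reductase with strong activity on retinal, was at 4.61 CPM in AKTmyr and 0.251 CPM in T53D4 (log2 4.20, SE 0.96, edgeR adjusted p = 0.00864), and was named after its values were seen. LRAT, which stores retinol as esters, rose in AKTmyr by log2 1.18 and BCO2, which cleaves carotenoids, fell by log2 -2.13 (edgeR adjusted p = 0.0329 and 0.0399). The LRAT call was lost without AKTmyr replicate 1 or 2 or any T53D4 replicate, and the BCO2 call without any AKTmyr replicate or T53D4 replicate 2 or 3 (edgeR adjusted p up to 0.142 and 0.155).

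Genes that make, break down or carry retinoic acid numbered 12, of which 7 were tested and 3 are described above. FABP5, a fatty acid carrier that can also bind retinoic acid, was at 63.3 ± 6.28 CPM in RasV12, 28.2 ± 3.16 in MekDD, 23.7 ± 5.26 in AKTmyr, 32.0 ± 4.46 in T53D4 and 32.4 ± 12.1 in ARPE19. In RasV12 it rose by log2 0.98 against T53D4 (SE 0.24), while CRABP2 did not pass (edgeR adjusted p = 0.00923 for FABP5 and 0.766 for CRABP2). CYP1B1, an oxidase with activity on retinol, was at 81.2 ± 27.6 CPM in AKTmyr and 16.5 ± 2.64 CPM in T53D4 (log2 2.30, SE 0.46, edgeR adjusted p = 0.00442). In AKTmyr 4 of the 7 rose over T53D4 and 0 fell, the 4 being ALDH1A1, CRABP2, CYP1B1 and CYP26A1. CYP26A1, a retinoic acid hydroxylase named after its values were seen, had 76 reads in AKTmyr and 13 in T53D4 over 3 libraries each (log2 2.34, edgeR adjusted p = 0.0221), a call lost without AKTmyr replicate 1 or any T53D4 replicate (edgeR adjusted p up to 0.11). In RasV12 2 of the 7 rose, ALDH1A1 and FABP5, and in MekDD 1, ALDH1A1. With the replicate block RasV12 had 2 higher and 1 lower, MekDD 1 and 0, and AKTmyr 4 and 0. Over all genes, 24.4%, 5.1% and 20.1% passed against T53D4 in RasV12, MekDD and AKTmyr. With the block these shares were 35.8%, 11.7% and 34.8%. CYP26B1, the more abundant hydroxylase, was at 8.69 ± 4.67 CPM in RasV12, 14.5 ± 2.095 in MekDD, 10.2 ± 2.70 in AKTmyr, 7.82 ± 0.971 in T53D4 and 8.33 ± 1.198 in ARPE19, with no call against T53D4.

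Genes known to be induced by retinoic acid did not move one way. Of 23 listed, 18 were tested, 4 of them among the 9 genes. RasV12 had 3 higher and 3 lower than T53D4 (3 and 5 with the block), MekDD 1 and 1, and AKTmyr 5 and 2 (6 and 2 with the block), with medians of log2 -0.13, 0.04 and 0.21. The shares of all genes were again 24.4%, 5.1% and 20.1%, and 35.8%, 11.7% and 34.8% with the block. TGM2, tissue transglutaminase, was at 602 ± 276 CPM in RasV12, 469 ± 166 in MekDD, 62.4 ± 7.60 in AKTmyr, 76.1 ± 21.6 in T53D4 and 190 ± 44.0 in ARPE19. It rose in RasV12 and MekDD against T53D4 by log2 2.98 (SE 0.36) and 2.63 (SE 0.35), with edgeR adjusted p = 4.24e-05 and 0.000433. In AKTmyr it did not pass against T53D4 (log2 -0.29, edgeR adjusted p = 0.578). Against ARPE19, AKTmyr was lower (log2 -1.60, edgeR adjusted p = 0.00611), and T53D4 stood at log2 -1.32 without passing (edgeR adjusted p = 0.158). RARRES1, a membrane protein gene named for its response to retinoic acid, was at 1.06 ± 0.378 CPM in RasV12, 1.79 ± 0.602 in MekDD, 6.04 ± 3.82 in AKTmyr, 7.56 ± 1.14 in T53D4 and 16.0 ± 8.02 in ARPE19. Against T53D4 it fell by 2.86 on the log2 scale in RasV12 (SE 0.52) and by 2.097 in MekDD (SE 0.49), with edgeR adjusted p = 0.00122 and 0.0241. The MekDD call was lost without MekDD replicate 1 or 2 or T53D4 replicate 1 or 2 (edgeR adjusted p up to 0.11), and against ARPE19 RARRES1 fell by 3.18 in MekDD (adjusted p = 0.00147). TBX3, a transcription factor, was at 11.8 ± 2.31 CPM in RasV12 and 2.37 ± 0.819 CPM in T53D4 (log2 2.30, edgeR adjusted p = 0.000155).

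**Figure D4:**
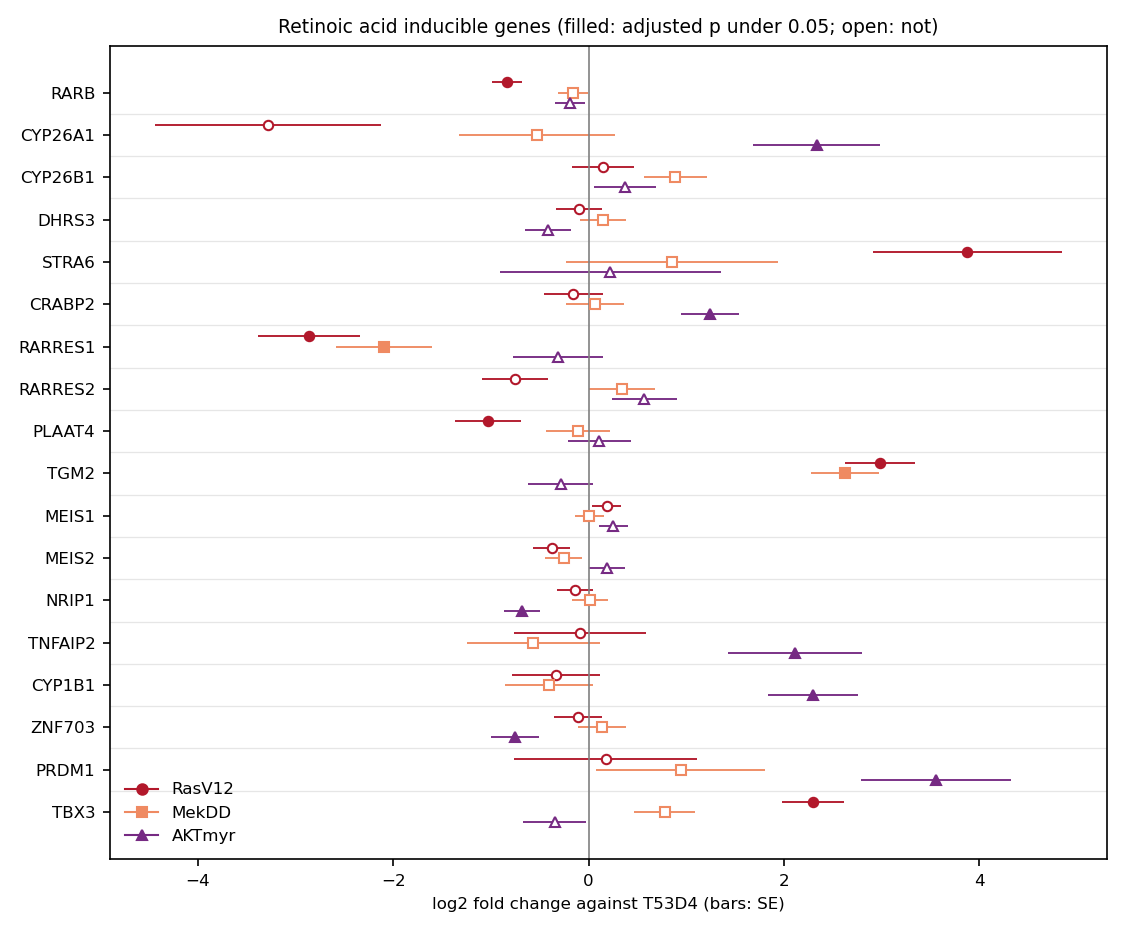
Log2 fold change against T53D4, with SE bars, of 18 tested genes known to be induced by retinoic acid, in RasV12, MekDD and AKTmyr; filled symbols have edgeR adjusted p under 0.05. TGM2 rises and RARRES1 falls in RasV12 and MekDD, and neither is filled in AKTmyr.

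The wider aldehyde dehydrogenase superfamily, enzymes that oxidise aldehydes from many pathways, moved in both directions. Of 19 genes, 18 were in the table and 16 were tested. RasV12 had 1 higher and 5 lower than T53D4 (2 and 6 with the block), MekDD 1 and 1, and AKTmyr 2 and 0 (5 and 0 with the block). In RasV12 10 of the 16 did not pass, where 10.8% of all genes were higher and 13.6% lower, and over all genes 24.4%, 5.1% and 20.1% passed in the 3 lines (35.8%, 11.7% and 34.8% with the block). ALDH1B1, a mitochondrial enzyme, was at 41.3 ± 1.35 CPM in RasV12, 104 ± 17.1 in MekDD, 127 ± 53.7 in AKTmyr, 150 ± 52.4 in T53D4 and 124 ± 31.6 in ARPE19. It fell in RasV12 by log2 -1.86 against T53D4 and -1.58 against ARPE19 (edgeR adjusted p = 0.000725 and 0.00187). ALDH4A1, which breaks down proline, fell by log2 -1.59 and ALDH5A1, which breaks down GABA, by log2 -0.72 against T53D4 (edgeR adjusted p = 0.00717 and 0.0148), and the ALDH5A1 call was lost without RasV12 replicate 3 (0.0599). ALDH1L1 and ALDH1L2, the cytosolic and mitochondrial formyltetrahydrofolate dehydrogenases, were named after their values were seen. ALDH1L1 was at 0.888 CPM in RasV12 and 0.701 CPM in MekDD, against 4.26 CPM in T53D4 (log2 -2.25 and -2.58, edgeR adjusted p = 0.00171 and 0.00287). ALDH1L2 was at 2.92 CPM in AKTmyr and 0.273 CPM in RasV12, against 0.651 CPM in T53D4 (log2 2.17 and -1.25, edgeR adjusted p = 0.000179 and 0.00779).

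**Figure D5:**
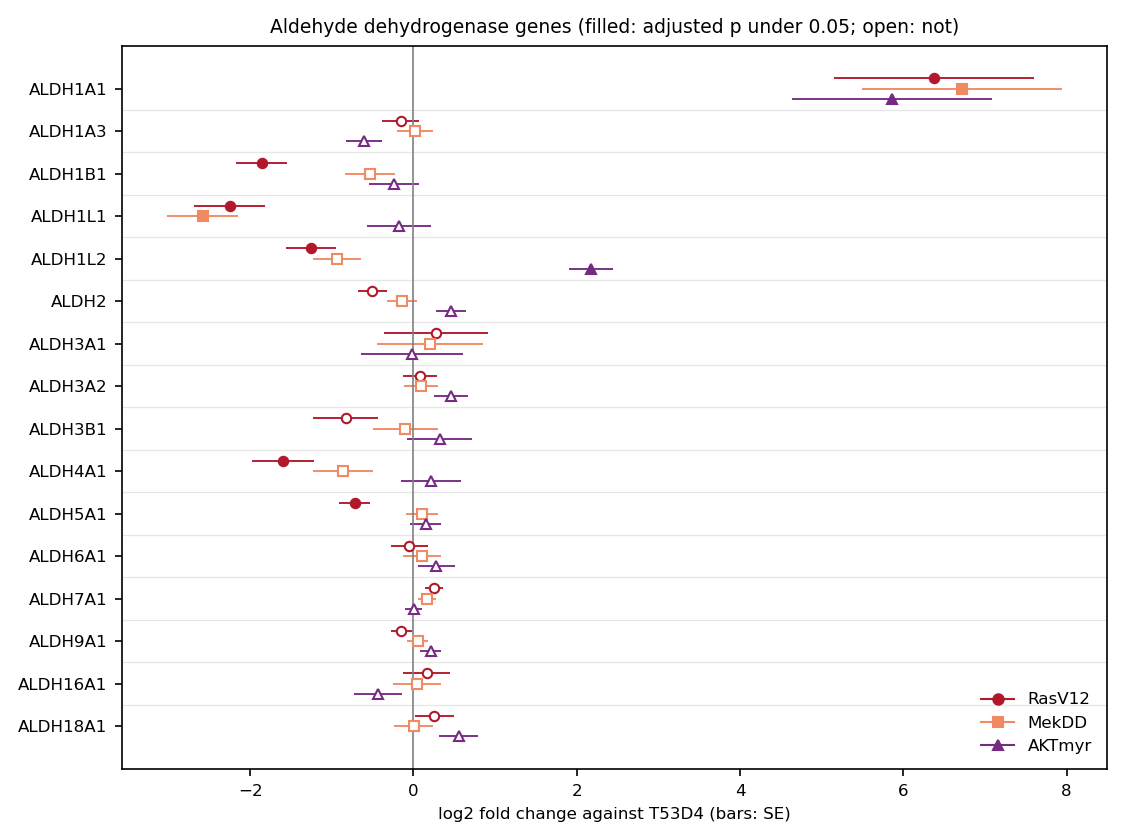
Log2 fold change against T53D4, with SE bars, of 16 tested aldehyde dehydrogenase genes in RasV12, MekDD and AKTmyr; filled symbols have edgeR adjusted p under 0.05. ALDH1A1 is far to the right in all 3 lines, and 5 genes are filled to the left of 0 in RasV12.

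Pigment epithelium genes moved beside these changes. Of 15 tested, 0 rose and 5 fell in RasV12 against T53D4 (1 and 7 with the block), 1 rose and 0 fell in MekDD (2 and 3 with the block), and 2 rose and 2 fell in AKTmyr (3 and 3 with the block), beside 24.4%, 5.1% and 20.1% of all genes (35.8%, 11.7% and 34.8% with the block). MITF, the pigment cell regulator, was at 27.5 ± 3.26 CPM in RasV12 and 92.5 ± 22.9 CPM in T53D4 (log2 -1.75, edgeR adjusted p = 0.000246). SERPINF1, which encodes the secreted factor PEDF, was at 26.3 ± 1.65 CPM in MekDD and 2.16 ± 0.607 CPM in AKTmyr, against 7.90 ± 1.03 CPM in T53D4 (log2 1.73 and -1.86, edgeR adjusted p = 0.000905 and 0.000543). Markers of other cell types were mixed. The blood markers PTPRC, CD14 and LYZ had at most 17 reads over the libraries of a line, the endothelial markers PECAM1 and CDH5 at most 10, and the keratinocyte marker KRT5 had 1 read in RasV12, 53 in AKTmyr and 0 in the other 3 lines. IVL, of the same list, was at 0.205 ± 0.175 CPM in MekDD, 7.07 ± 2.16 in T53D4 and 9.32 ± 1.57 in ARPE19 (log2 -5.17 in MekDD against T53D4, edgeR adjusted p = 0.00411). PDE6B, the 1 photoreceptor marker above 1 CPM, was at 4.45 ± 0.486 CPM in RasV12, 5.44 ± 1.80 in AKTmyr and 11.3 ± 1.84 in T53D4 (log2 -1.34 and -1.04, edgeR adjusted p = 0.00129 and 0.00963). Both endothelial genes tested passed in RasV12 against T53D4, KDR at log2 1.39 (3.49 CPM in RasV12 and 1.33 CPM in T53D4) and VWF at log2 -3.04 (0.0622 and 0.484 CPM), and were named after their values were seen; KDR was lost without RasV12 replicate 3 or T53D4 replicate 1 (edgeR adjusted p up to 0.0959). Of 7 glia markers 3 were in the table, with a summed level of 942 to 1383 CPM in RasV12 and 690 to 1358 CPM in T53D4. Most of it came from DKK3, with means of 1103 CPM in RasV12 and 970 CPM in T53D4. GLUL was at 118 and 141 CPM. CD68, a lysosomal gene also used as a macrophage marker, was at 314 ± 30.3 CPM in RasV12 and 142 ± 51.5 CPM in T53D4. It rose by log2 1.14 (edgeR adjusted p = 0.0032). The part of these markers in the retinoid results was not tested.

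Among 8 of the 9 genes, STRA6 being too low, the patterns most alike across the 15 libraries were those of RDH10 and RARB (Pearson r = 0.81 of log2 CPM) and of ALDH1A3 and DHRS3 (r = 0.75), and the most opposed were those of ALDH1A1 and RARB (r = -0.65). Libraries of a line share its cells, so these values describe 15 points in 5 clusters, and no test was made. Among 11130 genes searched, FAM3C (r = 0.92) and ITPR1 (0.90) ran most like ALDH1A1, TMEM131L (0.95) and IL17RE (0.93) most like RARB, and MAGI3 and SLC7A8 (0.94 each) most like CRABP2. GPRC5A and GNPTAB (0.91 each) ran most like RDH10, SURF4 (0.92) and UBA6 (0.89) most like RDH11, MBP (0.86) and AUH (0.85) most like ALDH1A3, SLC25A29 (0.82) and ABTB1 (0.79) most like DHRS3, and FAM107A (0.72) and C9orf16 (0.71) most like RLBP1. STRA6 was not searched.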

How the data were processed

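Poly(A) RNA of 15 libraries (5 lines, 3 each) was sequenced with a directional paired-end kit, per the labels' protocols. The authors deposited a table of raw read counts per gene, used here; their normalized and log-scale tables were not used. The submitters' processing notes name featureCounts 1.6.4, HISAT2 2.1.0, DESeq2 1.28.1, fastp 0.20.0, deepTools 3.2.0, SAMtools 1.9 and the build hg38; their settings and strand use in counting are not given in the sources used here. The table has 15517 rows, of which 7 construct rows were left out of library sizes and tests; 0 columns of values were left unmapped. edgeR 4.0.16 (R 4.3.3) fitted all 15 libraries with TMM factors after filterByExpr (minimum count 10), its quasi-likelihood test gave 10 comparisons, and p-values were Benjamini-Hochberg adjusted over 13599 genes, with 0.05 as the threshold. Levels are CPM, or RPKM by exon length from the deposited annotation. Each SE is the absolute log2 fold change divided by the square root of the test's F statistic. Intervals apply a normal quantile to that SE, so they are approximate and narrower than the test implies. Likeness is Pearson r of log2 CPM (prior count 2). On simulated counts for RasV12 against T53D4 (13472 genes), 51.5% of changes of log2 1 and 88.9% of log2 2 were recovered, with 4 false calls. The simulated libraries were independent, without shared replicate deviations, and only 99 tested genes changed at each size. These figures therefore describe that setting and not the error rates in the data.

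The members and gene lists were chosen with earlier results of these data known. 1 further gene is not reported here and was left out of the lists and their counts; other genes that stand in 2 lists count under both. Of the other list genes, up to 3 called genes per list and comparison with the largest fold change and a mean of at least 5 CPM were eligible to be named. Further list genes were named outside this rule, and some are marked in the text as named after their values were seen. RPE65, RGR, OTX2, ALDH1A2, RARA, RXRB, CYP26B1, DKK3 and GLUL carry no such mark. Neither do PTPRC, CD14, LYZ, PECAM1, CDH5 and KRT5. Same-numbered libraries deviated together (correlation over 0.1 in all 3 pairs) in 8 of 10 comparisons, the exceptions being RasV12 against ARPE19 (lowest 0.0103) and against AKTmyr (lowest 0.0271). MekDD against ARPE19 was a borderline case. Its lowest same-number correlation (0.105) was under its highest between different numbers (0.109). Alternatives were RLE factors, no filter, the construct rows included, DESeq2 1.42.0, a replicate block, the 2 lines alone, and leaving out libraries.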

Additional observations from a re-analysis of the deposited data

How the results depend on the processing

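No result that passed the test changed direction under any alternative run. With the replicate block, genes called were 232 instead of 21 in T53D4 against ARPE19, 1589 instead of 694 in MekDD against T53D4, 4738 instead of 2738 in AKTmyr against T53D4, 3064 instead of 1479 in MekDD against ARPE19, 4027 instead of 2290 in AKTmyr against ARPE19, 3588 instead of 2108 in RasV12 against MekDD and 5481 instead of 3560 in MekDD against AKTmyr. DESeq2 called 188 and 1116 in the first and second of these. Fitting the 2 lines alone called 2 in T53D4 against ARPE19, 1449 in AKTmyr against T53D4, 1365 in AKTmyr against ARPE19 and 2349 in MekDD against AKTmyr, and 1 of the 9 retinoid genes instead of 3 in RasV12 against MekDD. Leaving out 1 library of a comparison gave 2534 to 2862 genes and 3 to 5 of the 9 in RasV12 against T53D4, 360 to 600 and 1 in MekDD against T53D4, 1611 to 2669 and 2 to 4 in AKTmyr against T53D4, 2971 to 4276 and 3 to 5 in RasV12 against ARPE19, 685 to 1603 and 1 to 3 in MekDD against ARPE19, 1328 to 2087 and 2 to 4 in AKTmyr against ARPE19, 1352 to 1815 and 1 to 2 in RasV12 against MekDD, 4319 to 5677 and 3 to 4 in RasV12 against AKTmyr, 2271 to 3698 and 1 to 3 in MekDD against AKTmyr, and 1 to 6 and 0 in T53D4 against ARPE19. Leaving out a replicate number in all lines, chosen after seeing the data, gave in the same order 934 to 3082, 82 to 529, 385 to 1730 (1354 without replicate 3), 1250 to 3684, 114 to 1386 (890 without replicate 1), 284 to 1771 (1099 without replicate 3), 354 to 2297 (933 without replicate 3), 2107 to 4854, 644 to 2854 and 1 to 7 genes, each lowest, or tied for lowest, without replicate 2. Of the 9, these fits called 0 to 5, 0 to 1, 0 to 4, 2 to 4, 0 to 3, 0 to 4, 0 to 2, 0 to 4, 0 to 4 and 0. The counts of 0 came from leaving out replicate 2 of every line, or, in RasV12 against MekDD, also replicate 3. RLE factors, no filter and including the construct rows kept every count of all genes and of the 9 within 1.5 times. The cause of these shifts was not tested. ALDH1A1 and STRA6 rest on few reads outside the lines where they are high, and 3 reads are 0.0651 to 0.143 CPM per library.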
